A study of Mus musculus with 9 samples.

Results

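Glycolytic enzymes of proliferating cells were described here as 10 genes, Hk2, Gpi1, Pfkl, Pfkp, Aldoa, Gapdh, Pgk1, Eno1, Pkm and Ldha, in 9 mouse liver tumors. The genes were chosen by name, with no measured value in the rule, from the 52176 gene symbols that the 9 tables list. All 10 were listed in all 9 tumors, and all 10 passed the filter on low values in every comparison. The tumors were grown from Hepa1-6, a mouse hepatoma line. Pieces of subcutaneous Hepa1-6 tumors were implanted into the left liver lobe of male C57BL/6 mice bought at 6 to 8 weeks of age, and PBS or anti-PD-1 antibody, which blocks an inhibitory receptor of T cells, was injected into the peritoneum 5 times, once every 4 days. The groups were 3 PBS tumors, 3 anti-PD-1 antibody-nonresponsive tumors (the largest of the antibody-treated tumors) and 3 anti-PD-1 antibody-responsive tumors (the smallest). Tumors of intermediate response were left out by the authors, so that response and tumor size cannot be told apart in these groups.

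Glycolysis splits glucose into pyruvate, and lactate dehydrogenase turns pyruvate into lactate. Normal hepatocytes run the pathway with some enzymes of their own, such as the liver pyruvate kinase Pklr, and also run it backwards to make glucose. Dividing and cancer cells rely on hexokinase Hk2 and on the pyruvate kinase Pkm, and tumors are known for turning glucose into lactate even where oxygen is present. Many of these genes are classical targets of the hypoxia-inducible factor HIF-1 and of Myc, which bind short motifs in front of the start of a gene.

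The upstream sequence of these genes was searched for such motifs, as a description only. RefSeq (build GRCm38.p6) held 16 annotated starts for the 10 genes, and the 250 bases before each start were read. The HIF-1 core was searched as ACGTG or GCGTG on both strands, and the Myc motif as CACGTG, which reads the same on both strands and contains ACGTG on each, so that 1 CACGTG counts as 2 cores. At least 1 core was found in 13 of the 16 starts, against 38.6% of all 32851 starts in the table. At least 2 were found in 7 of the 16, against 16.7% of all starts. Neighboring starts of a gene can overlap, so that the same core is counted at more than 1 start. This was so for Eno1 (cores 86 and 62 bases before one start, 113 and 89 before the next) and for Aldoa (126 and 202). Of the members, 9 of 10 had a core at 1 start or more, the exception being Gpi1. The same count per gene was not made over all genes, and the shares above are per start, so this count has no background beside it. The upstream bases of the members were rich in G and C, with a median of 62.8% against 52.4% over all starts. The sequences below, each ending at the base before the start, belong to the member with the widest range across tumors (Hk2), the member closest to the mean of the others (Pgk1) and the member with the narrowest range, whose start shown here was the only one of the members' starts with CACGTG (Ldha, 1 of its 2 starts). CACGTG was present at 6.02% of all starts. Capitals mark the cores, which read CACGT or CACGC where the core lies on the other strand. Hk2 (chr6:82774455-82774704, minus strand) had cores 226 and 52 bases before the start, Pgk1 (chrX:106186850-106187099, plus strand) had them 150 and 131 bases before, and Ldha (chr7:46845554-46845803, plus strand) had CACGTG 145 and 48 bases before and a further core at 34. These matches describe letters and were not measured as binding sites.
Hk2: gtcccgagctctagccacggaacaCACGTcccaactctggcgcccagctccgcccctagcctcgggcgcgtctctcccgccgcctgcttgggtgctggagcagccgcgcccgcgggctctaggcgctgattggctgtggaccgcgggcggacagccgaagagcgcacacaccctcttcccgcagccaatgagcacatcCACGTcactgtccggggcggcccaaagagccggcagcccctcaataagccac
Pgk1: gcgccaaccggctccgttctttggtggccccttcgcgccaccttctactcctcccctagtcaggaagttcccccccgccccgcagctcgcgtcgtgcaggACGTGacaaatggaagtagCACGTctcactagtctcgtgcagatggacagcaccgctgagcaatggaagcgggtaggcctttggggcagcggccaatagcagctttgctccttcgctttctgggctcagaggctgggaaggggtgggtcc
Ldha: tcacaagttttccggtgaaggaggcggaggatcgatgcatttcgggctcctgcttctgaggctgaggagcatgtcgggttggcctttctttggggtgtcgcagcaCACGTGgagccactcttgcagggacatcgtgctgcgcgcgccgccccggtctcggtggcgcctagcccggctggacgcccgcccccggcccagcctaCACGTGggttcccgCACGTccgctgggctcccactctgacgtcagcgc

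Levels are given as FPKM, which is the number of sequenced fragments of a gene relative to the length of its transcript and to the size of the library, so that levels of different genes can be compared. Gapdh was the highest member with a mean of 2064 FPKM over the 9 tumors, followed by Aldoa with 1029.5, Ldha with 777, Pkm with 727, Eno1 with 533, Pgk1 with 396, Gpi1 with 214, Pfkl with 67.4, Pfkp with 54.7 and Hk2 with 36.8. The order of neighbors was the same in all 9 tumors for Gapdh over Aldoa, Pkm over Eno1, Eno1 over Pgk1, Pgk1 over Gpi1, Gpi1 over Pfkl and Pfkp over Hk2. Aldoa lay above Ldha in 7 of 9 tumors, Ldha above Pkm in 6 of 9 and Pfkl above Pfkp in 7 of 9, so these neighbors were not separated in every tumor. Hexokinase and phosphofructokinase, of the upper steps, were thus the lowest. The 10 members together took 0.421% to 1.10% of the FPKM of entries that name a gene, and Gapdh alone took 30.2% to 38.8% of the members' sum.

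**Figure D1:**
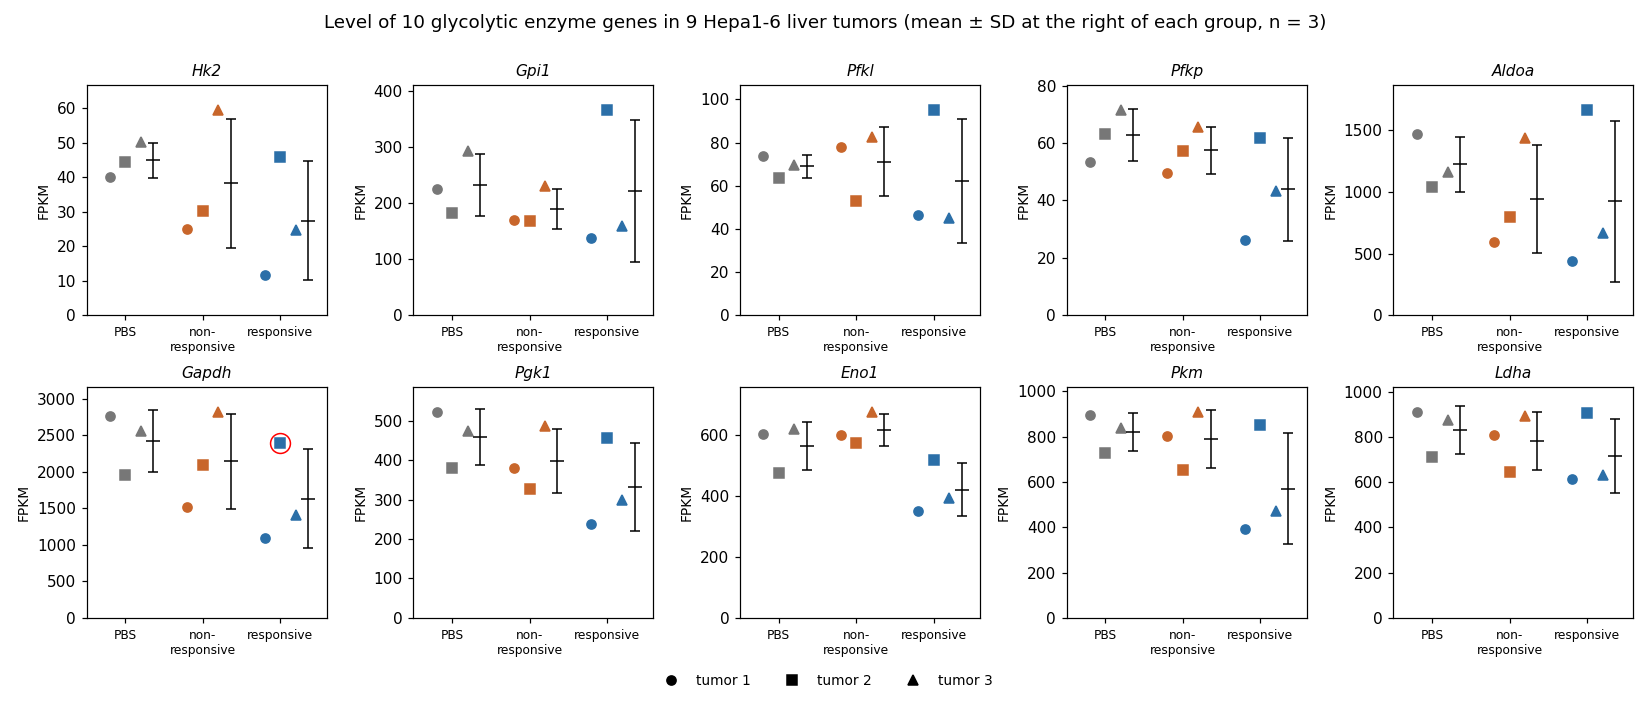
Each panel plots the FPKM of 1 gene (linear axis from 0) in 3 PBS, 3 nonresponsive and 3 responsive tumors; the symbol gives the tumor number within its group, and the bar at the right of each group is the mean ± SD (n = 3). Responsive tumors 1 and 3 lie among the lowest 3 tumors in all 10 panels, while responsive tumor 2 is the highest for Gpi1, Pfkl and Aldoa; the circled Gapdh value was marked by Cufflinks as a failed estimate.

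Hk2, the hexokinase that traps glucose in dividing cells, was measured at 40.0, 44.3 and 50.1 FPKM in PBS tumors 1, 2 and 3, at 24.8, 30.1 and 59.5 in nonresponsive tumors 1, 2 and 3, and at 11.6, 45.8 and 24.6 in responsive tumors 1, 2 and 3. It spanned the widest range of the members, 5.12-fold from responsive tumor 1 to nonresponsive tumor 3, and every group overlapped every other. Gpi1, the isomerase of the next step, read 225, 182 and 292 FPKM in the PBS tumors, 169, 167 and 230.1 in the nonresponsive tumors and 138, 367 and 159 in the responsive tumors. Its highest and its lowest value were both in the responsive group. Gpi1 shared its entry with the noncoding gene Gm12762 in all 9 tumors, so that its reads cannot be separated from those of that gene.

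Phosphofructokinase commits glucose to the pathway, and the tumors carried its liver-type subunit Pfkl and its platelet-type subunit Pfkp at similar levels. Pfkl was at 73.8, 63.5 and 69.7 FPKM in the PBS tumors, 78.0, 52.7 and 82.6 in the nonresponsive tumors and 46.2, 95.3 and 45.1 in the responsive tumors. Pfkp was at 53.5, 63.0 and 71.7 FPKM in the PBS tumors, 49.4, 57.2 and 65.7 in the nonresponsive tumors and 26.1, 61.9 and 43.4 in the responsive tumors. The ratio of Pfkp to Pfkl stayed between 0.565 and 1.09 over the 9 tumors, and the groups overlapped. Aldoa, the aldolase that cuts the 6-carbon sugar, read 1468.5, 1037 and 1158 FPKM in the PBS tumors, 595, 796 and 1437 in the nonresponsive tumors and 439, 1666 and 669 in the responsive tumors. Aldoa too had both its highest and its lowest tumor in the responsive group, 3.80-fold apart.

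Gapdh, the dehydrogenase that makes the first NADH of the pathway, read 2756, 1949.7 and 2551 FPKM in the PBS tumors, 1516, 2097 and 2815 in the nonresponsive tumors and 1089.6, 2397 and 1408 in the responsive tumors. The value of responsive tumor 2 carries Cufflinks' mark of a failed estimate and was used as listed. The gene is often taken as a constant reference, and here it differed 2.58-fold between its lowest and highest tumor. It also has many copies in the genome. In the GENCODE M21 transcripts, 167 pseudogenes named in the tables aligned to Gapdh over at least 500 bases at 90% identity or more, and 26 of them had a mean of at least 1 FPKM. Their summed FPKM amounted to 11.0% to 15.1% of that of Gapdh itself, so that the split of reads between Gapdh and its copies is uncertain. The copies of the other members came to at most 1.79% of the member's FPKM (Pgk1).

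Pgk1, the kinase that makes the first ATP of the lower steps, read 522, 382 and 475 FPKM in the PBS tumors, 379, 328 and 486 in the nonresponsive tumors and 239, 457 and 300.5 in the responsive tumors. Of the members it followed the mean of the other 9 most closely, with a root mean square difference of 0.107 on the centered log2(FPKM + 1) scale over the 9 tumors. Pkm (0.140) and Gapdh (0.161) came next, and Aldoa (0.327) and Hk2 (0.350) were farthest. Pkm, a pyruvate kinase, was read per gene, so that forms of its transcript are not separated. Pkm read 895, 727 and 840 FPKM in the PBS tumors, 803, 653 and 908 in the nonresponsive tumors and 391, 852 and 470.5 in the responsive tumors. Its 2 lowest values were those of responsive tumors 1 and 3. Its entry also names Gm49759 in all 9 tumors.

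Eno1, the enolase of the step before pyruvate kinase, read 601, 474 and 617 FPKM in the PBS tumors, 599.7, 573 and 674 in the nonresponsive tumors and 351, 517 and 391 in the responsive tumors. It was the member whose responsive tumors all lay below all nonresponsive tumors. Ldha, the lactate dehydrogenase subunit that favors lactate, read 910.2, 709.7 and 874 FPKM in the PBS tumors, 808, 644 and 894 in the nonresponsive tumors and 614, 905 and 631 in the responsive tumors. It had the narrowest range, 1.48-fold, and shared its entry with Gtf2h1 in PBS tumor 2.

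The members ranked responsive tumors 1 and 3 and nonresponsive tumor 3 alike, and the other tumors less so. Counted from the lowest, nonresponsive tumor 1 ranked 2 of 9 for Aldoa and 7 of 9 for Pfkl. Responsive tumor 1 was the lowest of the 9 tumors for 9 of 10 members, all but Pfkl, which was lowest in responsive tumor 3. Responsive tumors 1 and 3 were both among the lowest 3 for 10 of 10 members. Responsive tumor 2 stood apart from them and was among the highest 3 for 6 of 10. Nonresponsive tumor 3 was among the highest 3 for 10 of 10 and the highest for 4, which were Hk2, Gapdh, Eno1 and Pkm. The share of all genes with such ranks was not computed. The histone gene H3f3b, read below, was also lowest in responsive tumors 1 and 3. It was picked for its likeness to the mean of the members, so its ranks follow from that choice and give no such share. The summed FPKM of the members was 7544, 5633 and 6998 in the PBS tumors, 5023, 5399 and 7652 in the nonresponsive tumors and 3345, 7363 and 4141.5 in the responsive tumors. The SD grew with the groups in that order, 6725 ± 985, 6025 ± 1422 and 4950 ± 2128 FPKM (SD, n = 3), and the responsive group spanned nearly the whole range of the 9 tumors.

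Depth cannot be read from FPKM directly. A rough measure was the most common ratio of FPKM to PBS tumor 1, over nonzero entries listed under a reference gene identifier. Its inverse put the 9 libraries between 0.936 and 1.07 times PBS tumor 1. Only 4.93% to 8.35% of these entries lay close to that ratio. Entries that name no gene took 19.2% to 81.5% of the FPKM of a tumor and were left out. The hepatoma markers were uneven, with Afp, a fetal liver protein, at 0.321 FPKM in nonresponsive tumor 1 and 56.5 in nonresponsive tumor 3, H19 (entry shared with Mir675) between 2.87 and 39.3 and Gpc3 between 2.50 and 11.5 over the 9 tumors. Skeletal muscle genes, which should be absent from a liver tumor, had a summed FPKM of 290.3 in nonresponsive tumor 3 and 99.7 in PBS tumor 1 over the 7 of 8 measured, against 5.39 to 19.05 in 6 other tumors. It was 76.1 in responsive tumor 2, of which 74.8 was troponin Tnnt3 (entry shared with Lsp1), and each of the other 6 genes read at most 0.709 there. Fast myosin Myh4 was listed at 0 in all 3 responsive tumors. Muscle is itself rich in Aldoa and Gapdh, and the part of muscle RNA was not tested beyond leaving out nonresponsive tumor 3 and PBS tumor 1 together, with responsive tumor 2 kept, which put the median differences given below at -0.17, -0.44 and -0.30 instead of -0.36, -0.54 and -0.16.

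The first question was whether tumors that responded to the antibody differed from tumors that did not. Between responsive and nonresponsive tumors 9 of 10 members had a lower mean and Gpi1 a higher one, but no member passed an adjusted p of 0.05 in limma (0 of 10, smallest adjusted p = 0.888), where 0.0988% of the 15188 genes tested passed. The count at an unadjusted p under 0.05 was also 0 of 10, against 5.43% of all genes. The median difference of the members was -0.36 on the log2(FPKM + 1) scale, beside -0.060 over all genes tested, and 56.9% of all genes had a difference under 0. Differences ran from -0.57 for Eno1 to 0.10 for Gpi1. A rescaling that sets the entries naming a gene to the same sum in each tumor moved the median of all genes to -0.24 and that of the members to -0.56, and Gpi1 then read -0.099.

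Eno1 came nearest to a difference. It averaged 420 ± 86.5 FPKM in responsive and 615 ± 52.3 in nonresponsive tumors (SD, n = 3), a log2 difference of -0.57 with an SE of 0.24 and a 95% interval of -1.16 to 0.021. Its limma adjusted p was 0.888, and the exact two-sided permutation test gave p = 0.10, the smallest that 3 against 3 tumors allow. It was 1 of 10 members whose responsive tumors all lay lower, against 4.68% of all genes. For Hk2 the difference was -0.56 with an interval of -1.95 to 0.83, for Pkm -0.53 (-1.41 to 0.34), for Pfkp -0.46 (-1.30 to 0.39) and for Gapdh -0.43 (-1.43 to 0.58). For each of these 4, responsive tumors 1 and 3 were the lowest 2 of the 9 tumors. Counted from the lowest, responsive tumor 2 ranked 7 of 9 for Hk2 and Pkm and 6 of 9 for Pfkp and Gapdh. Aldoa, at -0.16 (-1.61 to 1.30), and Ldha, at -0.14 (-0.80 to 0.53), lay closest to 0 of the members with a lower mean. Without responsive tumor 2 the median of the members was -0.71 and 2 of 10 had an unadjusted limma p under 0.05 (6.41% of all genes in either direction, adjusted p at least 0.759). Without responsive tumor 1 it was -0.085, and without nonresponsive tumor 3 it was -0.17.

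Against PBS tumors, all 10 members had a lower mean in the responsive tumors, and again 0 of 10 passed an adjusted p of 0.05 in limma (smallest adjusted p = 0.343) where 0.217% of 15207 genes passed. At an unadjusted p under 0.05 the count was 0 of 10, beside 17.3% of all genes. The median difference was -0.54, against -0.11 over all genes, and 57.7% of all genes were under 0. Hk2 differed by -0.88 (95% interval -2.08 to 0.31), from 44.8 ± 5.03 FPKM in PBS to 27.3 ± 17.2 FPKM in responsive tumors (SD, n = 3). Gapdh differed by -0.63 (-1.54 to 0.27), Aldoa by -0.62 (-1.91 to 0.68), Pkm by -0.60 (-1.44 to 0.24) and Pfkp by -0.58 (-1.42 to 0.26). Pgk1 at -0.51, Eno1 at -0.44, Pfkl at -0.23, Ldha at -0.23 and Gpi1 at -0.19 followed. In none of the 10 were the responsive tumors all below the PBS tumors, whereas 16.2% of all genes tested showed that.

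The median difference from PBS moved both ways with the responsive tumor that was left out. Without responsive tumor 2 the median of the members was -0.81. Of the members, 8 of 10 then had an unadjusted limma p under 0.05, the exceptions being Gpi1 and Ldha, while 20% of all genes were lower at that threshold. The smallest adjusted p of a member was 0.159 in that setting, so none passed. Without responsive tumor 1 the median was -0.28. With the failed Gapdh estimate of responsive tumor 2 left out, Gapdh differed from PBS by -0.95 with an adjusted p of 0.279 in limma and rested on 2 responsive tumors.

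The nonresponsive tumors were compared with PBS tumors to ask whether antibody without response went with a change. Here 8 of 10 members were lower and Pfkl (0.019) and Eno1 (0.13) higher, with a median of -0.16 beside -0.056 over all genes, of which 55.3% were under 0. None of the 10 passed an adjusted p of 0.05 in limma (smallest adjusted p = 0.719), where 0.0725% of 15163 genes did, and 0 of 10 had an unadjusted p under 0.05, against 3.19%. Aldoa had the largest difference, -0.46 with an interval of -1.40 to 0.48, followed by Hk2 at -0.32 (-1.19 to 0.55). No member's groups were free of overlap, as 8.06% of all genes were in either direction. Without nonresponsive tumor 3 the median was -0.30, and Hk2 (-0.69) and Aldoa (-0.81) had an unadjusted limma p under 0.05 with adjusted p of 0.353 each, where 13.9% of all genes had such a p. The 3 comparisons share tumors, so the 3 sets of differences are not independent of each other.

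**Figure D2:**
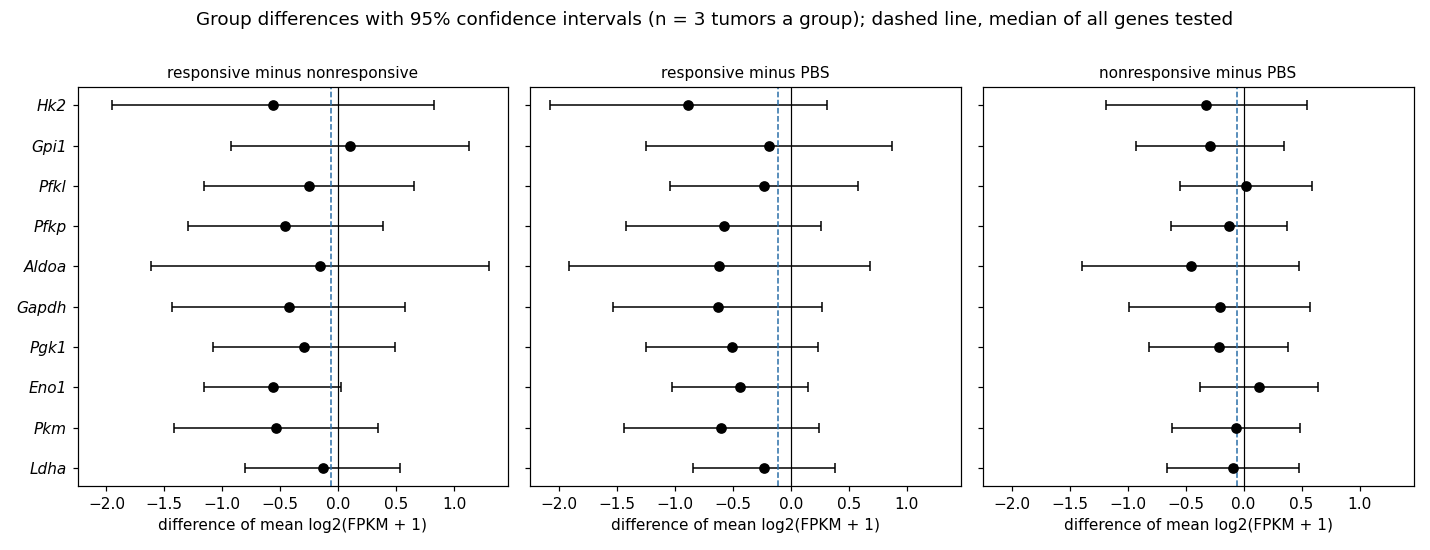
Each point is the difference of mean log2(FPKM + 1) of 1 gene between the named groups (3 tumors each), with its 95% confidence interval from limma; the dashed line is the median of all genes tested and the solid line is 0. Every interval crosses 0, the nearest to clearing it being Eno1 in responsive minus nonresponsive tumors, with an upper end of 0.021.

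Other enzymes of the same steps were read from a list of 13 genes, of which 10 passed the filter. None of the 10 had an unadjusted p under 0.05 in any of the 3 comparisons in limma, and the smallest adjusted p was 0.310. Tpi1, the isomerase of the triose sugars, was the highest of the list at 483 FPKM over the 9 tumors and differed by -0.28 between responsive and nonresponsive tumors and by -0.53 between responsive and PBS tumors. Pgam1, the phosphoglycerate mutase, read 319, 309 and 370.3 FPKM in the nonresponsive tumors and 209, 308 and 213 in the responsive tumors. These groups did not overlap, with 308 against 309 FPKM at the closest, and its adjusted p was 0.895 in limma. Of all genes tested, 4.68% were lower without overlap in this comparison. Hk1, the hexokinase of most tissues, stood at 33.8 FPKM on average, near Hk2, and the ratio of Hk2 to Hk1 lay between 0.678 and 1.55.

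Glucose and lactate transporters and regulators of the pathway were read from a list of 12. All 12 passed the filter, and 0 of 12 had an unadjusted p under 0.05 in limma in any comparison (smallest adjusted p = 0.295). Their median differences were -0.31 between responsive and nonresponsive tumors, -0.12 between responsive and PBS and 0.18 between nonresponsive and PBS. Slc2a1, the glucose transporter GLUT1, read 48.6, 56.9 and 94.6 FPKM in the PBS tumors, 113, 55.8 and 77.5 in the nonresponsive tumors and 52.4, 73.0 and 42.4 in the responsive tumors. Slc16a3, the lactate exporter MCT4 (entry shared with Gm28192), was highest at 132 FPKM in nonresponsive tumor 1 and lowest at 21.7 in PBS tumor 1. Hif1a, which encodes the oxygen-sensitive subunit of HIF-1 (entry shared with Snapc1 and Snapc1l), was lowest at 44.6 FPKM in responsive tumor 2, a tumor with high enzyme levels. Myc, named here after its values were seen because its motif was searched above, read 63.9, 40.2 and 45.0 FPKM in the PBS tumors, 7.88, 40.8 and 54.5 in the nonresponsive tumors and 8.71, 47.5 and 25.6 in the responsive tumors. Myc was low in responsive tumor 1 and in nonresponsive tumor 1. The mean log2(FPKM + 1) of the 10 enzymes was 7.42 and 8.10 there, in a range of 7.42 to 8.61 over the 9 tumors. The part of Hif1a or Myc in the enzyme levels was not tested.

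Hypoxia-response genes outside glycolysis put the 5 lowest tumors in the same order as the enzymes did. Their mean log2(FPKM + 1) over 10 genes was lowest in responsive tumor 1 (3.63) and then responsive tumor 3 (4.57), as it was for the 10 enzymes (7.42 and 7.79). It was highest in responsive tumor 2 (5.48), where the enzymes were second only to nonresponsive tumor 3 (8.60 against 8.61). All 10 hypoxia genes had a lower mean in responsive than in nonresponsive tumors, with a median of -0.27 and 0 of 10 at an unadjusted limma p under 0.05 (smallest adjusted p = 0.971), beside 56.9% of all genes with a lower mean and 5.43% at that p. Against PBS tumors, 8 of 10 were lower in responsive tumors (median -0.35) and 6 of 10 in nonresponsive tumors (median -0.099, from -1.87 to 1.23), with 0 of 10 at an unadjusted p under 0.05 in both. The shares over all genes were 57.7% and 55.3% lower, and 17.3% and 3.19% at that p. Bnip3, a mitochondrial protein of low oxygen, read 143, 77.8 and 109 FPKM in the nonresponsive tumors and 62.4, 157 and 72.2 in the responsive tumors. Ndrg1, a stress-response gene, read 35.6, 49.6 and 87.7 against 19.5, 107 and 42.2 FPKM, and Vegfa, the vascular growth factor, read 74.0, 32.5 and 60.0 against 34.5, 72.5 and 30.3 FPKM. Each of the 3 had its highest responsive value in tumor 2.

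Proliferation genes gave a partly different order. Their mean over 12 genes was 5.79, 4.93 and 5.72 in the PBS tumors, 3.42, 5.08 and 5.94 in the nonresponsive tumors and 3.63, 5.15 and 4.78 in the responsive tumors, on the log2(FPKM + 1) scale. Nonresponsive tumor 1 was the lowest here, below responsive tumor 1, whereas for the enzymes it ranked above both low responsive tumors. All 12 had a lower mean in each of the 3 comparisons, with medians of -0.21 (responsive against nonresponsive), -0.97 (responsive against PBS) and -0.71 (nonresponsive against PBS), where 56.9%, 57.7% and 55.3% of all genes had a lower mean. At an unadjusted limma p under 0.05 the counts were 0, 2 and 0 of 12, and none passed the adjusted threshold (smallest adjusted p = 0.279). The count of 2 of 12 was near the 17.3% of all genes at that p. The 2 were Ccnb1 (entry shared with Cenph) and Bub1, named after their values were seen. Cdk1, the mitotic kinase, ran from 15.4 FPKM in responsive tumor 1 to 208 in nonresponsive tumor 3. Pcna, the replication clamp, read 61.2, 85.9 and 84.7 FPKM in the responsive tumors, all below the 88.3 to 125 FPKM of the PBS tumors. Of all genes tested, 16.2% were lower without overlap in that comparison. Birc5, whose entry is shared with 3 other genes in some tumors, ran from 12.0 to 239 FPKM.

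**Figure D3:**
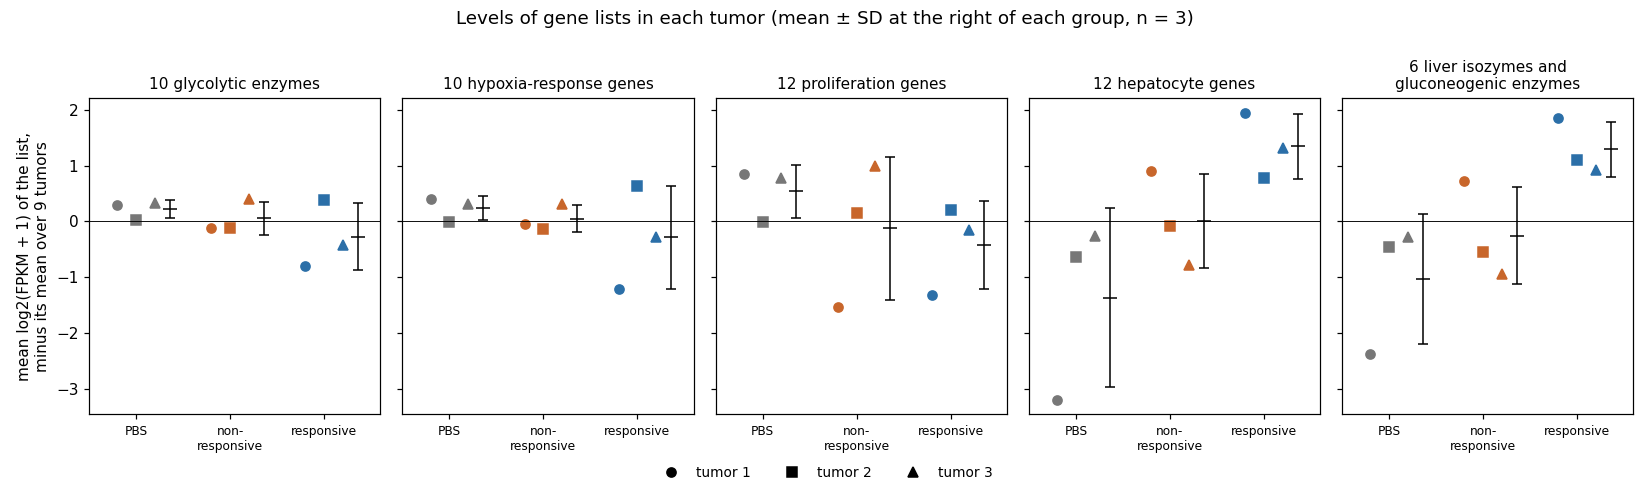
Each panel plots, for 1 gene list, the mean log2(FPKM + 1) in each tumor minus the mean over the 9 tumors, with the mean ± SD of each group at its right (n = 3). The enzymes and the hypoxia-response genes are low in responsive tumors 1 and 3 and high in responsive tumor 2; the hepatocyte and liver isozyme lists are higher in all 3 responsive tumors than in all 3 PBS tumors.

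Hepatocyte genes had higher means in the comparisons where most of the enzymes had lower ones. The summed FPKM of 12 hepatocyte genes was 431 to 4263 in the PBS tumors, 2670.5 to 9905 in the nonresponsive tumors and 9013 to 18790.1 in the responsive tumors, and none of the 12 was at 0 in all tumors of a group. In bulk tumors, fewer cells of a type and less RNA per cell cannot be told apart. All 12 had a higher mean in the responsive tumors than in nonresponsive (6 of 12 at an unadjusted limma p under 0.05, adjusted p at least 0.888) and PBS tumors (11 of 12, adjusted p at least 0.236). Of all genes, 6540 of 15188 and 6436 of 15207 had a higher mean in these comparisons, 608 and 1315 of them at that p. Alb, the plasma protein albumin, read 173, 835 and 1259 FPKM in the PBS tumors and 5041, 2576 and 4396 in the responsive tumors, and the apolipoproteins Apoa1 and Apoa2 (entry shared with Nr1i3) were likewise highest in responsive tumor 1. When the mean hepatocyte level entered a fit of all 9 tumors as a covariate, the median difference of the enzymes was -0.087 between responsive and nonresponsive tumors, 0.011 between responsive and PBS tumors (5 of 10 lower) and 0.072 between nonresponsive and PBS tumors. The hepatocyte level was itself different between the groups, so that its part and that of the response cannot be told apart with 9 tumors.

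Other cell types differed between the groups as well, and their part in the enzyme levels was not tested. B-cell genes had a summed FPKM of 36.1 to 115 in the responsive tumors, against 9.10 to 13.9 in the nonresponsive and 0.547 to 37.0 in the PBS tumors. All 3 genes had a higher mean in the responsive than in the nonresponsive group (median 1.75), and 3 of 3 had an unadjusted limma p under 0.05 (adjusted p = 0.888), beside 5.43% of all genes. Against PBS tumors the median was 2.09, with 1 of 3 at that p beside 17.3% of all genes. All 5 T-cell genes had a higher mean in responsive than in nonresponsive tumors (median 0.45, 1 of 5 at that p) and than in PBS tumors (median 0.86, 0 of 5). All 4 erythroid genes also had higher means in both comparisons, with medians of 1.11 (0 of 4 at that p) and 1.93 (2 of 4). Over all genes, 6540 of 15188 and 6436 of 15207 had a higher mean in these comparisons.

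Macrophage genes had lower means in responsive than in nonresponsive tumors for 6 of 7 (median -0.50, 0 of 7 at an unadjusted limma p under 0.05) and higher means than in PBS tumors for 6 of 7 (median 0.56, 1 of 7). Beside the first counts, 56.9% of all genes were lower and 5.43% had such a p. Against PBS tumors, 6436 of 15207 genes were higher and 17.3% had such a p, which the 1 of 7 was near. Their summed FPKM was 7742, 2159.7 and 3107 in responsive tumors 1, 2 and 3, 2265 to 5861 in the nonresponsive and 960.4 to 2969 in the PBS tumors. The summed FPKM of 5 neutrophil genes was 2368, 407 and 3269.5 in responsive tumors 1, 2 and 3. Both lists were thus lowest of that group in responsive tumor 2, where the enzymes were highest of that group. All 5 neutrophil genes (median -0.45), 5 fibroblast genes (median -0.57) and 4 endothelial genes (median -0.12) had lower means in responsive than in nonresponsive tumors, none at an unadjusted p under 0.05. Against PBS tumors their medians were 0.59, -0.11 and 0.37, again with none at that p. Of the hepatoma markers, 4 of 5 passed the filter, and all 4 had lower means in responsive than in nonresponsive tumors (median -0.86, 1 of 4 at that p). Against PBS tumors, 3 of 4 were lower in responsive tumors (median -0.65, 0 of 4) and 3 of 4 higher in nonresponsive tumors (median 0.72, 1 of 4, beside 3.19% of all genes). None of the 4 passed the adjusted threshold (smallest adjusted p = 0.499 in limma).

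The liver's own isozymes and gluconeogenic enzymes differed in the other direction from most of the 10 members. All 6 genes read had a higher mean in responsive than in nonresponsive tumors, with a median of 1.33, and 4 of 6 (Pklr, Fbp1, G6pc and Slc2a2) had an unadjusted limma p under 0.05, beside 5.43% of all genes, though none passed the adjusted threshold (smallest adjusted p = 0.888). Against PBS tumors 6 of 6, with Khk and Pck1 added, had an unadjusted limma p under 0.05 and a median of 2.34, with adjusted p of 0.0975 to 0.282, beside 17.3% of all genes at that unadjusted p. A higher mean in responsive tumors was found for 6540 of 15188 genes against nonresponsive and for 6436 of 15207 against PBS tumors. Khk, the fructose kinase, shared its entry with Emilin1. Fbp1, the fructose bisphosphatase of gluconeogenesis, read 2.82, 30.5 and 47.4 FPKM in the PBS tumors, 98.1, 36.1 and 33.3 in the nonresponsive tumors and 157, 97.0 and 117 in the responsive tumors. Nonresponsive tumor 1 thus reached the level of responsive tumor 2. G6pc, which releases glucose from the liver, read 0.210, 3.01 and 4.33 FPKM in the PBS tumors and 41.5, 16.8 and 13.4 in the responsive tumors.

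Ratios of isozymes within a tumor do not depend on how that tumor was scaled, and 5 pairs were read. The ratio of Pkm to Pklr, the pyruvate kinase of the liver, was 427, 80.3 and 126 in the PBS tumors. It was 48.9, 154 and 166 in the nonresponsive tumors and 18.5, 47.6 and 19.9 in the responsive tumors. All 3 responsive tumors lay below all 6 others, the closest pair being responsive tumor 2 at 47.6 and nonresponsive tumor 1 at 48.9. The ratio was highest in PBS tumor 1 and nonresponsive tumor 3, the tumors with high muscle genes. These tumors also had the lowest means of the hepatocyte list, 3.89 and 6.30 on the log2(FPKM + 1) scale. The parts of muscle and hepatocyte RNA in this ratio were not tested. The ratio moves with both of its genes, and between responsive and PBS tumors Pklr differed by 1.81 and Pkm by -0.60 on the log2(FPKM + 1) scale. The ratio of Hk2 to Hk1 was 1.17 to 1.26 in PBS tumors and 0.685 to 0.991 in responsive tumors, with no overlap, and the nonresponsive tumors overlapped both groups. The other 3 pairs overlapped in every comparison. Ldha/Ldhb was 109 to 577 in PBS tumors, 57.4 to 235 in the nonresponsive group and 50.7 to 201 in the responsive group. Aldoa/Aldoc was 90.7 to 129, 62.6 to 148 and 51.5 to 124 in the same order, and Pfkp/Pfkl was 0.724 to 1.03, 0.633 to 1.09 and 0.565 to 0.962. How often ratios of other gene pairs separate the groups was not computed, so the separations of Pkm/Pklr and Hk2/Hk1 have no background beside them. Of single genes, 4.68% were lower without overlap in responsive than in nonresponsive tumors, and 16.2% in responsive than in PBS tumors.

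**Figure D4:**
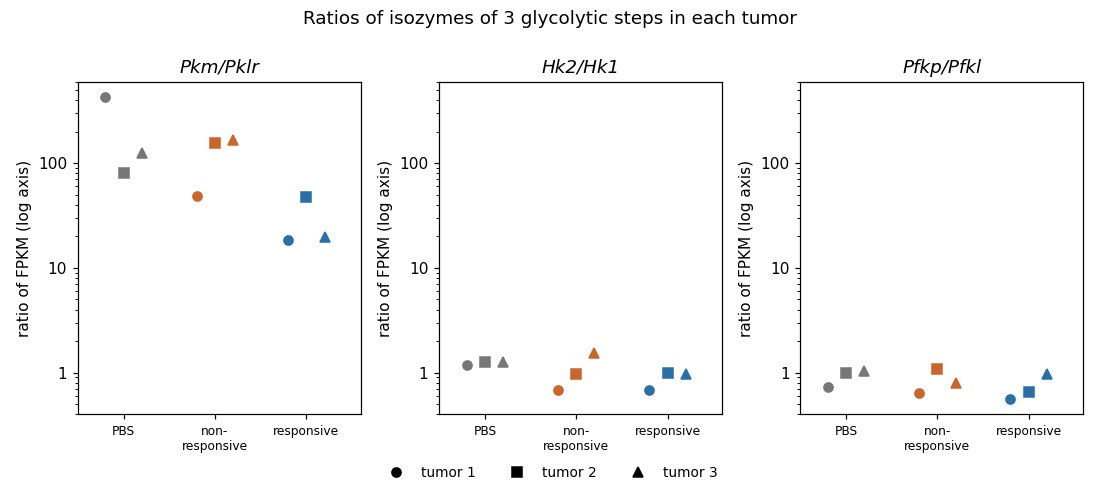
The ratio of the FPKM of 2 isozymes of the same step is plotted for 3 of the 5 pairs in each of the 9 tumors (log axis, the same in each panel). Responsive tumors lie below all PBS and all nonresponsive tumors for Pkm/Pklr, below all PBS tumors for Hk2/Hk1, and overlap both groups for Pfkp/Pfkl.

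Genes whose pattern over the 9 tumors was most like the mean of the 10 members were ranked by root mean square difference on the centered log2(FPKM + 1) scale, among 8348 genes with an FPKM of at least 1 in all tumors and an entry of their own. The median gene differed by 0.430. The 5 nearest were Gm7336 (0.110), Ppp4c (0.112), H3f3b (0.112), Tpi1 (0.113) and Gm12537 (0.115). Tpi1 is the glycolytic enzyme named above, Ppp4c is a protein phosphatase subunit and H3f3b encodes a histone. Gm7336 and Gm12537 are pseudogene copies of Gapdh, identical to its transcripts at 99.8% of 1232 and 99.9% of 1002 aligned bases, so their reads and those of Gapdh cannot be assigned with confidence. H3f3b read 442, 357 and 438 FPKM in the PBS tumors, 305, 309 and 475 in the nonresponsive tumors and 209, 379.5 and 292 in the responsive tumors. Responsive tumors 1 and 3 were lowest, which follows from its being picked for likeness to the enzymes.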

How the data were processed

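Bulk RNA of 9 tumors was sequenced (TruSeq libraries). Per the submitters' processing notes the reads were aligned with TopHat2 2.1.1 and Bowtie2 2.2.4. The authors deposited 1 Cufflinks gene table per tumor with FPKM values. The notes name build mm8, which could not be matched to the positions in the tables, so no position of the tables is printed. The annotation release is not given in the sources used here. The deposited table of group comparisons holds group values, fold changes, p-values and q-values and was not used.

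FPKM was summed over all entries whose name, split on commas, held the gene, and 13 genes with a failed estimate in a tumor were kept as listed. Differences of log2(FPKM + 1) between groups were fitted by limma (version 3.58.1, R 4.3.3; 6 tumors per fit, eBayes with trend). Genes that reached an FPKM of 1 in 3 or more of the 6 tumors were tested, with Benjamini-Hochberg adjustment over all genes tested. Intervals are 95% confidence intervals from the fit. Permutation tests were exact and two-sided, and cannot go below 0.10 with 3 against 3. Each tumor is 1 mouse, as far as the methods state. No read counts were given, so the number of tumors limits the precision. Pseudogene copies were found with blastn 2.17.0 against GENCODE M21 pseudogene transcripts, and figures drawn with matplotlib 3.10.9 (Python 3.11.15, pandas 2.3.3, numpy 2.4.6). The steps were tested on simulated data.

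The 10 members, the lists (other glycolytic enzymes, liver isozymes, transporters and regulators, hypoxia response, proliferation, hepatocyte, hepatoma, muscle, macrophage, neutrophil, T cell, B cell, fibroblast, endothelial, erythroid) and the tests were chosen with earlier results of these data known. Some liver enzymes are not reported here and were left out of their list. Named genes were the 10 members, genes of the first 3 of these lists with an unadjusted p under 0.05 or among the 3 with the highest mean FPKM, the 3 with the highest mean FPKM of the other lists where described, and the 5 genes most like the mean of the members. Of the muscle list the gene at 0 and the gene that led responsive tumor 2 were named instead, after their values were seen. The alternatives were another pseudocount, other filters and scalings, 1 fit of 9 tumors, a replicate block, joined loci, a hepatocyte covariate and leaving out each tumor. Leaving out failed estimates, or the tumors with muscle genes, was added after seeing the data.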

Additional observations from a re-analysis of the deposited data

How the results depend on the processing

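In no alternative did a member pass an adjusted p of 0.05 in any of the 3 comparisons (limma, smallest adjusted p 0.535, 0.159 and 0.353 for responsive against nonresponsive, responsive against PBS and nonresponsive against PBS). The hepatocyte covariate moved the median difference of the members between responsive and PBS tumors to 0.011. It also reversed Aldoa between responsive and nonresponsive tumors (0.38), Gpi1 (0.17), Pfkl (0.085), Aldoa (0.47), Gapdh (0.079) and Ldha (0.046) between responsive and PBS tumors, and Aldoa (0.097), Gapdh (0.16), Pgk1 (0.031), Pkm (0.14) and Ldha (0.046) between nonresponsive and PBS tumors. Rescaling to the named entries reversed Gpi1 between responsive and nonresponsive tumors (-0.099). Leaving out the tumors with muscle genes (PBS tumor 1 and nonresponsive tumor 3) reversed Aldoa there (0.19) and Pfkl between nonresponsive and PBS tumors (-0.052). The causes were not tested.

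Leaving out 1 tumor at a time put the median difference between -0.71 (without responsive tumor 2) and -0.085 (without responsive tumor 1) for responsive against nonresponsive tumors, between -0.81 and -0.28 (the same 2 tumors) for responsive against PBS tumors, and between -0.30 (without nonresponsive tumor 3) and -0.079 (without nonresponsive tumor 1) for nonresponsive against PBS tumors. Single members then ranged from -0.70 to 0.26 (Aldoa) and -0.33 to 0.37 (Gpi1) in the first comparison, from -0.62 to 0.080 (Gpi1) in the second, and from -0.10 to 0.22 (Pfkl), -0.42 to 0.022 (Gapdh), -0.17 to 0.063 (Pkm) and -0.20 to 0.040 (Ldha) in the third.

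The replicate numbers do not pair the tumors. Same-numbered tumors correlated between -0.40 and 0.48 in their deviations from the group means, and the replicate block left 0 of 10 members past the adjusted threshold in each comparison, with smallest adjusted p of 0.844, 0.570 and 0.854. Without read counts, what depth limits cannot be stated.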
